A study of Mus musculus with 12 samples.

Results

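Connexins are the proteins that build gap junctions, the channels through which neighbouring heart cells pass current and small molecules. Cx43, encoded by Gja1, is the main connexin of working ventricular myocytes, whereas Cx40, encoded by Gja5, marks embryonic trabeculae, Purkinje fibres, atrial myocytes and arterial endothelium. Cx45, encoded by Gjc1, is found in the conduction system, and Cx37, encoded by Gja4, in arterial endothelium. Cx46 (Gja3) is best known from the lens, and Cx30.2 (Gjd3) from the atrioventricular node.

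These 6 genes were taken by name, each as every probe that the scanner files label with its symbol. The 6 were among 34844 gene names on the array, and 5 of them were among the 18021 names that passed a filter on dim probes. The measurements are microarray signals from 12 left ventricles of mice aged 6 months, in 3 groups of 4, each array being one heart and one colour. The question was what deleting Nkx2-5, a cardiac transcription factor, from embryonic trabecular muscle leaves behind in the adult ventricle.

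All 3 groups carried floxed alleles of Nkx2-5 without the neomycin cassette (Nkx2-5-ΔNeo fl/fl). The mutants also carried Cx40-creERT2, in which the Gja5 locus drives a tamoxifen-inducible Cre recombinase, and they are named after the time of tamoxifen given to the pregnant mother: E10.5 and E11.5 for TrbE10, E13.5 and E14.5 for TrbE14. The controls were Cx40+/+ littermates in the study's methods and came from mothers without injection in the labels. Mutants therefore differ from controls by 1 altered Gja5 copy as well as by the deletion and the Cre protein, and, if the controls' mothers were not injected, by tamoxifen, and these cannot be told apart in any value of Gja5 given here. Deletion needed an active Gja5 locus at the time of tamoxifen, and whether endothelium was deleted was not tested here. The wall was sampled with its apex and without the septum, so that a ventricle holds deleted and undeleted cells.

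Nkx2-5 itself read 11.95, 12.23, 11.93 and 11.89 on the log2 scale in the controls, 11.27, 11.67, 11.21 and 11.22 in TrbE10 and 11.12, 11.57, 11.32 and 11.63 in TrbE14. Every mutant heart lay below every control heart. The change was -0.66 ± 0.14 (SE) in TrbE10 (adjusted p = 0.0459 by limma) and -0.59 ± 0.14 in TrbE14 (adjusted p = 0.106). The control and TrbE14 arrays shared a slide and a scan, whereas TrbE10 was hybridised on a slide of its own. Slide and group cannot be told apart in any comparison with TrbE10, and TrbE14 against control is a comparison within a slide. Between 22885 and 26145 probes per array were well above background and no spot was saturated. Y-linked transcripts were present in 1 control, 2 TrbE10 and 3 TrbE14 hearts. Of the 12 markers of ventricular myocytes all were measured, and their mean log2 signal was between 16.2 and 16.4 in every heart.

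The reference table of promoters held the upstream sequence of 4 of the 6 genes, and those of Gja5 and Gja4, the 2 connexins known from arterial endothelium, are shown because Gja5 carries the Cre allele and Gja4 had the largest pooled difference from control of the 5 measured members. Each is the 250 bases before the transcription start in RefSeq's GRCm38.p6, at chr3:97032152-97032401 on the plus strand for Gja5 and at chr4:127314040-127314289 on the minus strand for Gja4. Capitals mark the longest run of letters that the 2 windows share on the same strand.
Gja5: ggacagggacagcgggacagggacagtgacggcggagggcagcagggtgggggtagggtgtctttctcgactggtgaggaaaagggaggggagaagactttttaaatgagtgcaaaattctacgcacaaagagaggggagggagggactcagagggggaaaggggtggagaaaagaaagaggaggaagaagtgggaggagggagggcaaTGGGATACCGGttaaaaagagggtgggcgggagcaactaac
Gja4: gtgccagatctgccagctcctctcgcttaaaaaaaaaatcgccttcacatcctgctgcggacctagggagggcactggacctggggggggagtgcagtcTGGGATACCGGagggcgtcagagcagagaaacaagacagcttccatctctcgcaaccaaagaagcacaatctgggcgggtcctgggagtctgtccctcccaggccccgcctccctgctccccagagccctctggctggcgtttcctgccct
The shared run of 11 letters was present on either strand in 4 of 32851 upstream windows of the same length (0.0122%), these 2 included. It came from a search for the longest shared run in every pair of member windows and is a description. Gja1 shared longer runs, of 12 letters on the opposite strand, with Gja5 and with Gja4. Those were in 0.17% and 1.33% of windows. The Nkx2-5 binding letters TNAAGTG were searched on both strands and were in none of the 5 windows of the 4 genes (Gja3 has 2 annotated starts), against 10.1% of all windows. The T-box letters GGTGTGA were in none of them either, against 3.33% of all windows. A missing match says only that these letters are not in these 250 bases.

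Gja5 was measured well by 1 of its 3 probes, A_52_P525317 at chr3:96857349-96857408 (mm9, plus strand), which was well above background on all 12 arrays. Its log2 normalized signal was 7.57, 7.09, 8.83 and 7.78 in the controls. It was 7.17, 7.43, 7.31 and 6.77 in TrbE10 and 8.16, 7.34, 6.83 and 7.05 in TrbE14. The controls alone spanned 1.74 log2 units and the groups overlapped, with 3 of the 8 mutant hearts below the lowest control. The mean was 7.82 ± 0.73 (SD, n = 4) in controls, 7.17 ± 0.29 in TrbE10 and 7.34 ± 0.58 in TrbE14.

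Gja5 was not called in any comparison. The change was -0.64 ± 0.36 (SE) in TrbE10, with a 95% interval from -1.44 to 0.15 (adjusted p = 0.410 by limma), and -0.47 ± 0.36 in TrbE14, from -1.27 to 0.33 (adjusted p = 0.572). With both mutant groups together it was -0.56 ± 0.31, from -1.25 to 0.13 (adjusted p = 0.377). Each of the 3 intervals contains 0 and also -1, the log2 change that 1 silent copy of 2 would give, so these 12 hearts do not separate the 2 cases. Control heart 3, the highest of all, weighed most. Without it the change was -0.31 in TrbE10, -0.13 in TrbE14 and -0.22 with both together (adjusted p = 0.699, 0.876 and 0.731 by limma). Without control heart 2, the lowest control, the change was larger, -0.89, -0.71 and -0.80 (adjusted p = 0.281, 0.465 and 0.269 by limma). Without TrbE14 heart 1 it was -0.74 in TrbE14. With the sex of the mice as a covariate it was -0.52 in TrbE10, -0.23 in TrbE14 and -0.38 with both together. Whether the transcript of the Cre allele keeps the sequence of this probe was not tested.

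The second probe named Gja5, A_55_P2178748 at chr3:96881280-96881339, belongs to another transcript in the array's design. It read 4.70, 5.09, 5.29 and 5.38 in the controls, 4.75, 4.76, 4.95 and 3.60 in TrbE10, and 4.74, 4.85, 3.90 and 4.81 in TrbE14. It was well above background in 3 controls and in no mutant heart, and passed the filter through the controls alone, so its direction was fixed by that passage. The measured log2 change was -0.60 in TrbE10 and -0.54 in TrbE14 (adjusted p = 0.359 and 0.455 by limma), -0.13 and -0.069 after normexp background correction, -0.16 and -0.17 in the authors' table, -0.29 in TrbE10 without its heart 4 and -0.32 in TrbE14 without its heart 3. The third probe, A_55_P2178753 at chr3:96836339-96836395, was well above background in 1 heart of TrbE14 and did not pass the filter.

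**Figure D1:**
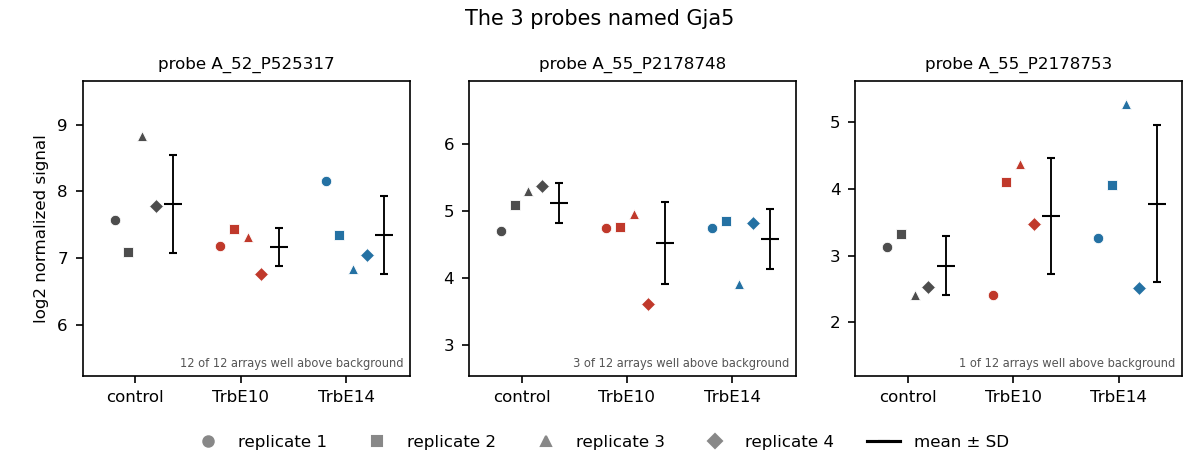
Log2 normalized signal of the 3 probes named Gja5 in each heart (points, by replicate number) with mean ± SD per group (n = 4). The first probe overlaps between all groups, with controls from 7.09 to 8.83; the other probes were well above background on 3 and 1 of 12 arrays.

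Gja4 had the largest difference from control among the 5 measured members in the TrbE14 and pooled comparisons under all settings tried. In TrbE10 Gja5 differed more without control heart 1, control heart 2 or TrbE10 heart 3. The Gja4 probe, A_52_P117352 at chr4:126988848-126988907 (mm9, minus strand), read 9.71, 9.92, 9.91 and 9.99 in the controls. In TrbE14 it read 10.39, 10.31, 11.12 and 11.23, and in TrbE10 10.48, 9.89, 11.10 and 11.15. All TrbE14 hearts and 3 of the 4 TrbE10 hearts lay above the highest control, and TrbE10 heart 2 lay among the controls.

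The change of Gja4 was 0.88 ± 0.29 (SE) in TrbE14, or 1.84-fold, with a 95% interval from 0.24 to 1.51 (unadjusted p = 0.0110, adjusted p = 0.240 by limma). In TrbE10 it was 0.77 ± 0.29, or 1.71-fold, from 0.14 to 1.41 (adjusted p = 0.218). For both mutant groups together it was 0.83 ± 0.25, or 1.77-fold, from 0.28 to 1.38 (adjusted p = 0.125). Gja4 thus missed the threshold of 0.05 in each comparison. The exact two-sided permutation p was 0.0286 for TrbE14, the smallest that 4 against 4 can give, 0.114 for TrbE10 and 0.0141 for the pooled groups. Without TrbE10 heart 2, the mutant heart among the controls, the pooled change was 0.95 with an adjusted p of 0.0358 by limma. Leaving out any other single heart gave a pooled adjusted p between 0.104 and 0.243. SAM at a false discovery rate of 5% called Gja4 when all 8 mutants were compared with the controls. The study compared each mutant group with control by 2-class SAM, and in those comparisons SAM did not call Gja4 here.

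The mutant hearts fell into 2 sets for Gja4, with none between 10.48 and 11.10. Hearts 3 and 4 of TrbE14 and hearts 3 and 4 of TrbE10 were at 11.10 or above, and the other 4 at 10.48 or below. The controls spanned 0.28 log2 units, against 0.92 in TrbE14 and 1.27 in TrbE10.

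Gja1, the main ventricular connexin, parted the same 8 hearts the other way. Its probe, A_52_P174915 at chr10:56109814-56109873 (mm9, plus strand), read 9.56, 9.51, 9.73 and 9.73 in the controls. In TrbE14 it read 9.67, 9.86, 9.05 and 8.87, and in TrbE10 10.01, 9.73, 9.25 and 8.89. The 4 hearts with the highest Gja4 were the 4 with the lowest Gja1, all below the lowest control, and 2 of the other 4 mutants lay above the highest control. The probe is printed 10 times on each array, and the SD between these spots within an array was 0.041 to 0.28 log2 units (median 0.067). The SD between hearts was 0.50 in TrbE10, 0.48 in TrbE14 and 0.11 in the controls.

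The group means of Gja1 did not differ beyond this spread. The change was -0.16 ± 0.26 (SE) in TrbE10, from -0.74 to 0.41 (adjusted p = 0.803 by limma), and -0.27 ± 0.26 in TrbE14, from -0.85 to 0.31 (adjusted p = 0.661). The pooled change was -0.22 ± 0.23, from -0.72 to 0.28 (adjusted p = 0.645). The direction in TrbE10 turned to 0.032 when TrbE10 heart 4 was left out.

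**Figure D2:**
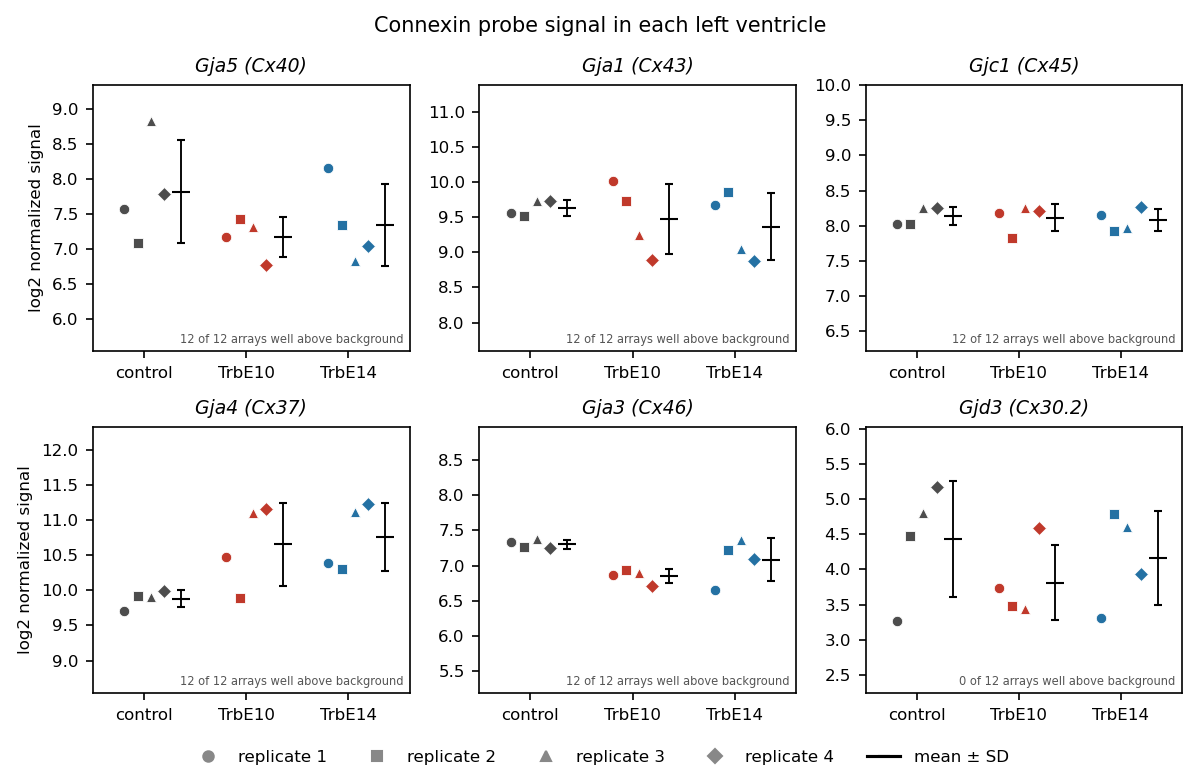
Log2 normalized signal of the brightest probe of each of the 6 connexin genes in each heart (points, by replicate number), with mean ± SD per group (n = 4); all panels span the same number of log2 units. Gja4 separates into hearts near 10 and hearts near 11 within both mutant groups, Gja1 is lowest in the same hearts, and TrbE10 lies below control for Gja3.

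Genes of the circadian clock moved with Gja4 from heart to heart, a relation looked at after its nearest genes had been seen. Over the 12 arrays, after the mean of each group was subtracted, the 5 genes most like Gja4 by Pearson's r included Lrig3, a transmembrane protein (r = 0.97), Mt1, which encodes a metallothionein (r = 0.96), and Nr1d1, which encodes the clock repressor Rev-erbα (r = 0.96). The other two are transcripts without an established symbol. These values of r describe 18015 genes compared on the same 12 arrays, and the split of the mutant hearts weighs heavily in them.

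Per2, a core clock gene, read 6.28, 6.61, 6.45 and 6.09 in the controls, 5.80, 4.22, 6.99 and 7.19 in TrbE14, and 5.74, 3.86, 7.21 and 7.76 in TrbE10. Hearts 3 and 4 of both mutant groups were the highest of all 12, and hearts 2 of both the lowest. Arntl, which encodes the clock activator Bmal1, read 8.54, 9.45, 7.56 and 7.71 in TrbE14 and 8.23, 9.37, 7.94 and 6.92 in TrbE10. It was thus lower in hearts 3 and 4 than in hearts 1 and 2 of each mutant group. Among the controls, Arntl ran from 7.59 to 9.19 while Gja4 stayed between 9.71 and 9.99.

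Of 13 clock genes, 11 were measured and none was called in a comparison with control; for Per2 the pooled change was -0.26 (adjusted p = 0.873 by limma). No hour of dissection is given in the sources used here, and the part of the clock genes' variation in the Gja4 and Gja1 values was not tested.

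**Figure D3:**
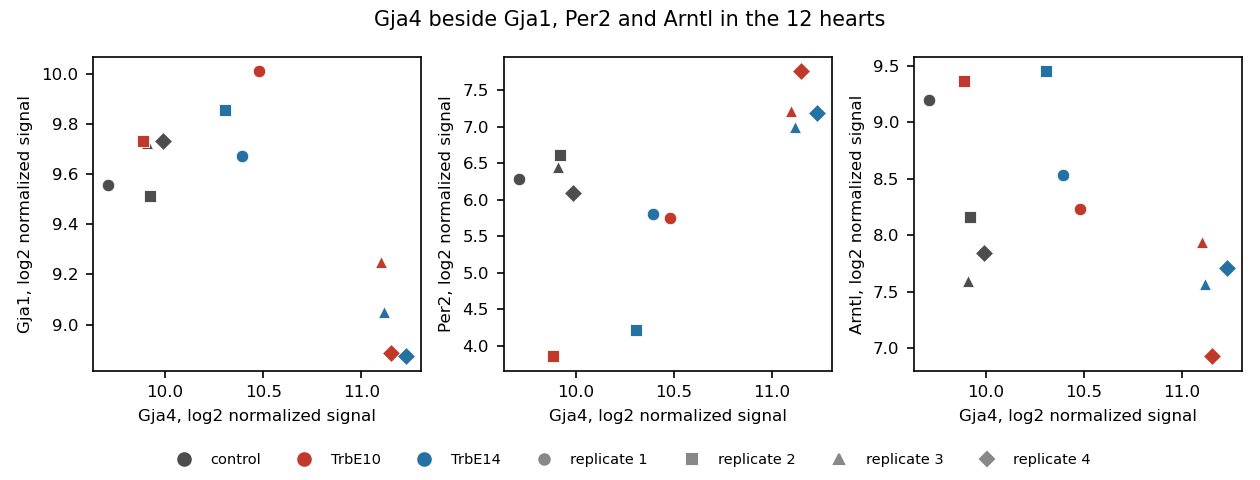
Log2 normalized signal of Gja1, Per2 and Arntl (vertical axes) against that of Gja4 (horizontal axes), 1 point per heart, coloured by group and shaped by replicate number. Hearts 3 and 4 of both mutant groups stand at the right, with low Gja1 and high Per2; the controls stand together at the left for Gja4.

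Gja3 was the member with the least spread among controls. Its probe, A_55_P2171912 at chr14:57654750-57654809 (mm9, minus strand), is shown because it carries the only separation of TrbE10 from control in the family.
Gja3 probe: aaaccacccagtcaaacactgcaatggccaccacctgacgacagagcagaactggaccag
It read 7.34, 7.26, 7.37 and 7.24 in the controls, 6.87, 6.94, 6.90 and 6.71 in TrbE10, and 6.66, 7.21, 7.36 and 7.09 in TrbE14. Every TrbE10 heart lay below every control, whereas TrbE14 ran from below the TrbE10 values up into the control range.

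The change of Gja3 was -0.45 ± 0.13 (SE) in TrbE10, or 1.37-fold lower, with a 95% interval from -0.74 to -0.16 (unadjusted p = 0.00587, adjusted p = 0.122 by limma). The exact two-sided permutation p was 0.0286. SAM called Gja3 in this comparison. In TrbE14 the change was -0.22 ± 0.13, from -0.52 to 0.068 (adjusted p = 0.475), and -0.083 without TrbE14 heart 1, the lowest of its group. It was, for both groups together, -0.34 ± 0.12, from -0.59 to -0.085 (adjusted p = 0.166). The difference between TrbE10 and TrbE14 was -0.23 ± 0.13, from -0.52 to 0.065 (adjusted p = 0.930), or -0.37 without TrbE14 heart 1 (adjusted p = 0.486), so the 2 mutant groups were not shown to differ in Gja3.

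Gjc1, one of the connexins found in the conduction system, was the flattest member. Its probe, A_55_P2107362 at chr11:102661010-102661069 (mm9, minus strand), read 8.03, 8.02, 8.25 and 8.24 in the controls, 8.18, 7.83, 8.25 and 8.20 in TrbE10, and 8.16, 7.93, 7.97 and 8.26 in TrbE14. The 3 groups covered nearly the same range. The change was -0.021 ± 0.12 (SE) in TrbE10, from -0.28 to 0.24 (adjusted p = 0.953 by limma), and -0.057 ± 0.12 in TrbE14, from -0.32 to 0.20 (adjusted p = 0.849). These intervals leave room for changes of that size in either direction.

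Gjd3 was not well above background on any of the 12 arrays and did not pass the filter. Its probe, A_55_P2167032 at chr11:98843494-98843553 (mm9, minus strand), read between 3.27 and 5.18 in the controls, between 3.44 and 4.59 in TrbE10 and between 3.32 and 4.79 in TrbE14. No change is given for it.

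Counted as a family, 0 of the 5 measured members were called in TrbE10 against control, where 2.15% of all measured genes were, and 0 of 5 in TrbE14 against control, where 0.76% were. In the pooled comparison 0 of 5 were called, against 2.42% of all genes, and in TrbE10 against TrbE14 none, where the share over all genes was 0%. At an unadjusted p under 0.05 by limma the counts were 2, 1, 2 and 0 of 5, beside 16.4%, 13.6%, 17.9% and 5.76% of all 24593 probes. SAM called 1, 0, 1 and 0 members, beside 522, 326, 1250 and 2 probes in all. The groups did not overlap for 1 member, Gja3, in TrbE10 against control, where 10.6% of genes did not overlap, and for 1 member, Gja4, in TrbE14 against control, where 10.1% did not; in the pooled comparison it was 0 members, against 4.31%. The median change of the 5 was -0.16, -0.22 and -0.22 in the comparisons of TrbE10, TrbE14 and both with control, and the median over all probes -0.025, -0.032 and -0.030. The 3 comparisons share the control hearts.

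**Figure D4:**
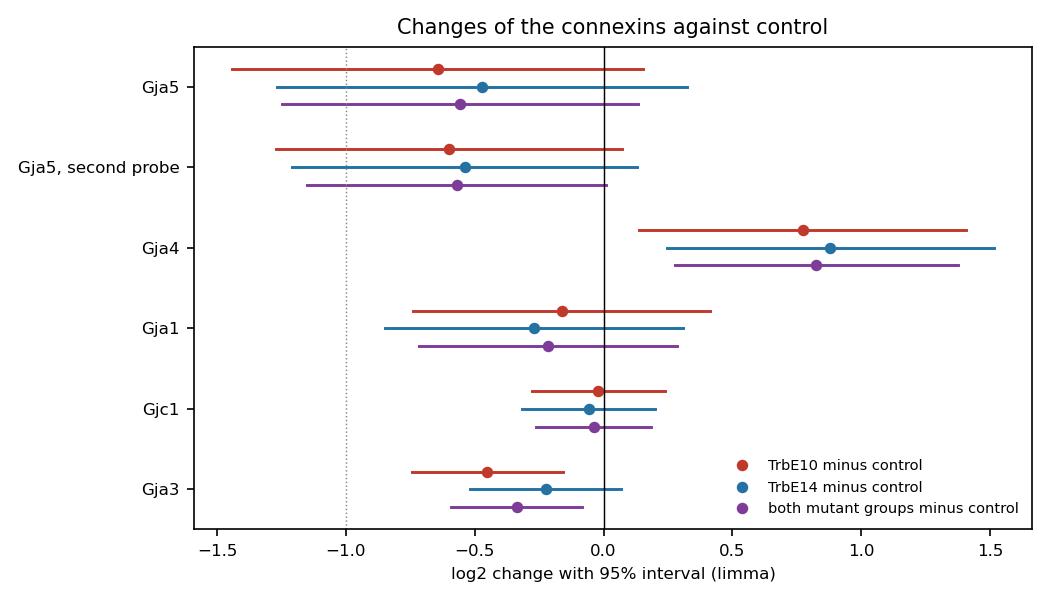
Log2 change against control of each measured connexin (points) with its 95% interval from limma (bars), for TrbE10, TrbE14 and both mutant groups together. The solid line marks 0 and the dotted line -1, the change that 1 silent copy of 2 would give; only the intervals of Gja4, and of Gja3 in TrbE10 and the pooled groups, exclude 0.

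The members did not vary together as a set. After the group means were subtracted, Gja1 and Gja4 ran against each other over the 12 arrays (r = -0.83), and Gjc1 ran with Gja4 (r = 0.66). The split of the mutant hearts weighs heavily in the value for Gja1 and Gja4, and the 4 controls did not run that way. In controls 1 to 4, Gja4 read 9.71, 9.92, 9.91 and 9.99 and Gja1 9.56, 9.51, 9.73 and 9.73. The correlation was 0.50 between Gja5 and Gja1 and -0.40 between Gja5 and Gja4. Gja3 was within 0.41 of 0 with each of the other 4. By the same measure, the genes most like Gja5 were Dand5 (r = 0.94), which encodes an antagonist of Nodal, Rtp4 (r = 0.93), an interferon-induced gene, and Hist2h2bb (r = 0.92), a histone gene. Nearest to Gja1 were Bbs12 (r = 0.98), a gene of the Bardet-Biedl chaperonin complex, Gtl3 (r = 0.97) and Fbxl8 (r = 0.97), followed by Zfp82 and Fam110a (both r = 0.96). Gjc1 was closest to Rpl7, a ribosomal protein gene (r = 0.94), then to Krtap11-1 (r = 0.93), Fmnl2 and Gm13004 (both r = 0.90) and Xrn1 (r = 0.89). Krtap11-1 read only 2.85 to 5.64 and Fmnl2 3.38 to 4.98, levels like those of Gjd3, so their r rests on dim readings. Gja3 was closest to Cox10 (r = 0.94), needed for haem A synthesis, Akr1a4 and Trub2 (both r = 0.92). Without the subtraction of group means, r with Gja3 was 0.65 for Cox10, -0.34 for Akr1a4 and 0.59 for Trub2.

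Of 17 other connexin and pannexin genes, 3 passed the filter and none was called. Panx1, which forms channels in the plasma membrane, had a pooled change of 0.51 ± 0.18 (SE) (adjusted p = 0.185 by limma), and Gjb1 (Cx32) of -0.20 ± 0.13 (adjusted p = 0.450). The genes that sit beside gap junctions at the intercalated disc had 22 of 23 measured and none called in any comparison, a count near the share over all genes. Their pooled median was 0.034, and 13 were higher and 9 lower. The largest changes among them were those of Cxadr, a cell adhesion receptor of the disc, -0.50 ± 0.16 (adjusted p = 0.143), and Dsc2, a desmosomal cadherin, -0.29 ± 0.16 (adjusted p = 0.373).

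Among 15 measured transcription factors that act on connexin genes, 2 rose in the pooled comparison, where 2.42% of all genes were called. The only one that fell was Nkx2-5, the gene deleted by design, so its fall is not a finding about the list. Id2, an inhibitor of DNA binding needed for the conduction system, rose by 1.00 ± 0.21 (SE) on the log2 scale (adjusted p = 0.0391 by limma). For Tbx20, a T-box factor, 2 of its probes rose, by 1.91 ± 0.32 and 1.25 ± 0.20 (adjusted p = 0.0142 and 0.00998), while its brightest probe changed by 0.43 ± 0.13 (adjusted p = 0.114). Tbx5, a known activator of Gja5, changed by -0.14 ± 0.19 (adjusted p = 0.730).

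Markers of the cell types in which these connexins are expressed are given beside them, and 2.42% of all measured genes were called in the same pooled comparison. Of 11 measured Purkinje and conduction system markers, 2 were called lower, Scn10a, a sodium channel gene, and Pcp4, a calmodulin regulator, and 1 higher, Id2; 4 of the 11 had a higher and 7 a lower mean. Scn10a changed by -1.52 ± 0.25 (adjusted p = 0.0118 by limma). Pcp4 was well above background in the 4 controls and in no mutant heart, and passed the filter through the controls alone, which fixed its direction. The adjusted p of its change as measured, in that fixed direction, was 0.0181 in TrbE10 and 0.00605 in TrbE14 by limma. For a bound on the quantile-normalized scale, dim values were set at each array's lowest signal well above background. The probe's own value was kept where that is higher. Controls were then at least 2.21-fold above TrbE10 and at least 2.46-fold above TrbE14, bounds that were not tested. These bounds belong to that scale: after normexp background correction the difference was 1.39-fold and 1.38-fold, and with no filter on dim probes the adjusted p by limma was 0.0552 and 0.0223. Cntn2, Hcn4 and Kcne1 were well above background on 0 arrays. The mean log2 signal of the list ran from 8.43 to 8.80 in controls and from 8.11 to 8.53 in mutants. In bulk tissue, fewer cells of a type and less RNA per cell cannot be told apart, and the part of Purkinje cells in the Gja5 values was not tested.

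Arterial endothelial markers, the setting of Gja4 and in part of Gja5, had 3 of 13 measured genes that rose in the pooled comparison and none that fell, beside the 2.42% of all genes called in either direction. Unc5b, a netrin receptor, rose by 1.09 ± 0.10 (SE) (adjusted p = 2.8e-04 by limma), Hey1, a Notch target, by 0.98 ± 0.10 (adjusted p = 6.95e-04) and Efnb2, which encodes the arterial ligand ephrin-B2, by 0.49 ± 0.093 (adjusted p = 0.0239). The list's mean ran from 8.84 to 9.10 in the controls and from 9.12 to 9.49 in the mutants, and its median change was 0.30, against -0.030 over all genes. Heart by heart the arterial mean was 9.40, 9.45, 9.20 and 9.12 in TrbE14 and 9.49, 9.24, 9.46 and 9.38 in TrbE10. Of 14 general endothelial and endocardial markers, Npr3, Vwf and Eng rose, by 1.12 ± 0.20, 1.06 ± 0.17 and 0.72 ± 0.13 (adjusted p = 0.0193, 0.0107 and 0.0199), and the list mean was 10.6 to 10.7 in controls and 10.8 to 11.0 in mutants. The part of endothelial cells in the Gja4 values was not tested.

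The remaining lists show what else differed in these ventricles, beside the 2.42% of all measured genes called in the pooled comparison. Of the ventricular myocyte markers, 0 of 12 were called; Ryr2, the calcium release channel, changed by -0.29 ± 0.096 (SE) and Atp2a2, the calcium pump SERCA2, by -0.20 ± 0.082 (adjusted p = 0.159 and 0.230 by limma). Of 8 markers of atrial myocytes, which also express Gja5, 4 had a higher and 4 a lower mean in the pooled comparison, with 2 called. Sln rose by 3.56 ± 0.57 (adjusted p = 0.0103), whereas the atrial light chain Myl7 changed by -0.059 ± 0.73 and Fgf12 by -0.29 ± 0.55 (adjusted p = 0.973 and 0.814). Bmp10 was well above background in all mutants and in no control, and passed the filter through the mutants alone, which fixed its direction. On the quantile-normalized scale it stood at least 4.19-fold above control in TrbE10 and at least 4.75-fold in TrbE14. After normexp background correction it stood 2.96-fold and 2.92-fold above control. With no filter on dim probes the adjusted p of its change as measured was 0.00172 and 0.00136 by limma. Stard10 fell in TrbE10 with a log2 change of -0.66 ± 0.14 (adjusted p = 0.0482). Pdgfrb and Notch3 rose among 10 smooth muscle and pericyte markers (0.39 ± 0.070 and 0.39 ± 0.083, adjusted p = 0.0180 and 0.0399). Of 10 fibroblast markers Tcf21, Fbln2 and Dcn rose, by 0.99 ± 0.22, 0.69 ± 0.15 and 0.44 ± 0.070 (adjusted p = 0.0482, 0.0473 and 0.00961). Of 12 macrophage markers 5 rose, Csf1r, Fcgr1, C1qc, C1qa and Cd68, from 1.03 ± 0.073 for Csf1r to 0.43 ± 0.096 for Cd68 (adjusted p = 5.83e-05 and 0.0495). No control heart had Fcgr1 well above background, so its direction too was fixed by the filter, and its pooled call was lost with no filter (adjusted p = 0.105) and after normexp background correction (adjusted p = 0.0653).

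**Figure D5:**
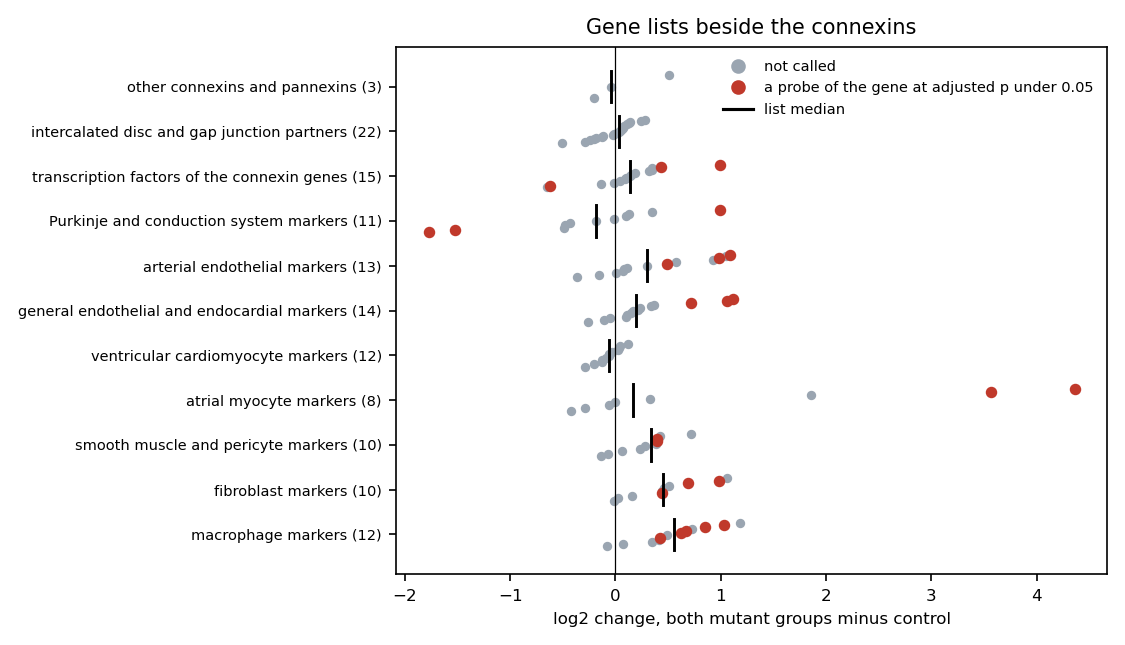
Log2 change of both mutant groups against control for each measured gene of the 11 lists (points, shown by the brightest probe; red where a probe of the gene was called), with the median of each list (black bar) and the number of measured genes in brackets. The disc genes lie around 0 with none called, while arterial, fibroblast and macrophage markers lie mostly above 0.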

How the data were processed

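RNA of 12 left ventricles was hybridised to Agilent SurePrint G3 mouse arrays. The authors deposited 1-colour Feature Extraction 10.5.1.1 intensity files, used here, and a table of log2 values that they had normalized by quantiles and filtered, used as an alternative. Here processed intensity was taken to log2, flagged spots were removed, arrays were quantile normalized, spots of a probe were averaged, and probes were kept if well above background on 3 of 4 arrays of a group (24593 probes). limma 3.58.1 (R 4.3.3) fitted 1 mean per group over all 12 arrays, with Benjamini-Hochberg adjustment over all probes and a call at 0.05. Genes with several probes are given by the brightest that passed. Named genes were the 6 connexins, Nkx2-5, called genes of each list (or the 2 with the largest pooled change) and the 5 genes most like each member; the clock genes were added after seeing values. Members and lists were chosen with earlier results of these data known. The replicates are separate hearts. Probe coordinates are those of the array files (mm9). Precision is limited by the 4 arrays per group. The fit was tested on simulated data. Alternatives were other scaling, background, filters, source table, samples, replicate block, sex, SAM, probe means and each array left out.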

Additional observations from a re-analysis of the deposited data

Results flagged for a closer look

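For the second Gja5 probe, A_55_P2178748, 1 heart stood apart from the other 3 of its group in each mutant group. TrbE14 heart 3 read 3.90 and TrbE10 heart 4 read 3.60 on the log2 scale, with gaps of 0.892 and 0.854 of the group's range, above the 95% limit of Dixon's test for 4 values. Both are readings not well above background. Of 18 groups examined 2 stood out in this way, and chance gives about 1 in 20.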

How the results depend on the processing

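No alternative called a connexin in TrbE14 against control or in TrbE10 against TrbE14. SAM called 1 member in TrbE10 against control (Gja3) and 1 in the pooled comparison (Gja4). With single hearts left out, the count of called members stayed at 0 except in the pooled comparison, where it ran from 0 to 1 (Gja4 without TrbE10 heart 2). The cause was not tested. With the replicate number as a replicate block, 0 members were called in each comparison, and Gja4 reached an adjusted p of 0.0584 when pooled; 3 of 12 same-numbered pairs correlated above 0.1, all between TrbE10 and TrbE14, whose 4 pairs ran from -0.0083 to 0.476, and 6 of 24 nearest hearts had the same number, so the numbers were not taken to pair the hearts, and the block moved the calls over all probes from 416 to 316 in TrbE10 against control and from 148 to 146 in TrbE14 against control.

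In the pooled comparison SAM was run over 100 of the 495 label orders and called 1250 probes, where limma called 466. In TrbE14 against control it was run over all 70 label orders and called 326, where limma called 148. The signs of Gja4, Gja5 and Gja3 against control held under all alternatives. Against control, signs turned only for Gjc1 and, in TrbE10, for Gja1. Between mutants they turned for every measured member except Gja3, at most to 0.24, for the second Gja5 probe. With sex as a covariate Gjc1 changed by 0.018 in TrbE10, 0.021 in TrbE14, 0.019 pooled and -0.0031 between mutants. The authors' table gave 0.012 for the second Gja5 probe between mutants. With single hearts left out, in TrbE10 against control Gja1 ran from -0.34 to 0.032 and Gjc1 from -0.067 to 0.074. Gjc1 ran from -0.076 to 0.0089 pooled. Between mutants Gja4 ran from -0.27 to 0.15, Gja1 from -0.074 to 0.30, Gja5 from -0.35 to 0.097, its second probe from -0.29 to 0.24 and Gjc1 from -0.014 to 0.13. Probes near background, such as those of Gjd3 and 2 of Gja5, have no reliable level here.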
